A study of Drosophila melanogaster with 3 samples.

Results

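The Toll pathway genes described here are Pli, Tl, spz, tub, pll, cact, dl, Dif and Myd88, 9 of the 13945 protein-coding genes annotated on the 6 chromosome arms used. They were chosen by pathway membership and on measured values: the set was built around Pli, because a summit in an intron of Pli ranked 5 by signal in the list of reproducible D19A peaks. The counts at these genes are therefore descriptions, and no test was made on them. The data are ChIP-seq peaks of the C2H2 zinc finger protein D19A, from whole Drosophila melanogaster embryos of both sexes, 0 to 20 h old. All 3 libraries were labelled as biological replicates 1, 2 and 3 of a single group. Per their description they were precipitated with an anti-GFP antibody, though the antibody label names D19A. All came from a transgenic line that expresses D19A with GFP at its C-terminus. Every library used here has this genotype, and the labels name no treatment. A whole embryo of this age range mixes all cell types and stages, so a peak cannot be placed in a cell type or a stage.

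Toll signalling starts outside the cell, where a protease cascade cleaves the ligand Spätzle (spz), which then activates the receptor Toll (Tl). Inside the cell the adaptors Myd88 and Tube (tub) bring the kinase Pelle (pll) to the receptor, and Pelle activity leads to destruction of the inhibitor Cactus (cact), which holds the NF-κB family factors Dorsal (dl) and Dif in the cytoplasm. In the early embryo the pathway sets the dorsoventral axis through Dorsal, and later in life it induces antimicrobial peptides through Dif and Dorsal. Pellino (Pli) is a RING-type protein that binds Pelle.

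The authors deposited a list of 30000 peaks for each replicate, a list of 30000 peaks called on the pooled libraries and a list of 7769 reproducible peaks made with their irreproducible discovery rate (IDR) procedure. A summit is the position of highest signal that the authors gave for a peak. Ranks are positions by signal value within a list, with 1 the strongest, since the signal values carry no stated normalization. A peak was given to a gene if its summit lay in the gene or within 5 kb of it, and distances are to the nearest annotated transcription start site (TSS) in dm6. The rank of a summit in a replicate is that of the nearest replicate summit, with its distance given where it exceeded 100 bp. No read counts are in the lists, so the depth is unknown.

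Of the 9 genes, 8 had at least 1 IDR summit in the gene or within 5 kb, against 52% of all protein-coding genes. The exception was spz. The windows of the 9 genes were longer, with a median of 23.2 kb, against 12.2 kb for all protein-coding genes, and longer windows more often held a summit. Among the longest quintile of protein-coding genes, which holds Pli, Tl, cact, dl and Dif, 71.2% had an IDR summit. In the quintile of spz and Myd88 55.9% did, and in that of tub and pll 50.3% did. An IDR summit stood within 250 bp of a TSS of the gene itself at 4 of the 9 genes (Pli, Tl, tub and cact), against 15.3% of all protein-coding genes. When the 7769 strongest peaks of each replicate were used instead, 8, 8 and 7 of the genes had a summit in replicates 1, 2 and 3 (7.67 ± 0.577, SD, n = 3). The share of all protein-coding genes was not computed for these replicate lists.

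**Figure D1:**
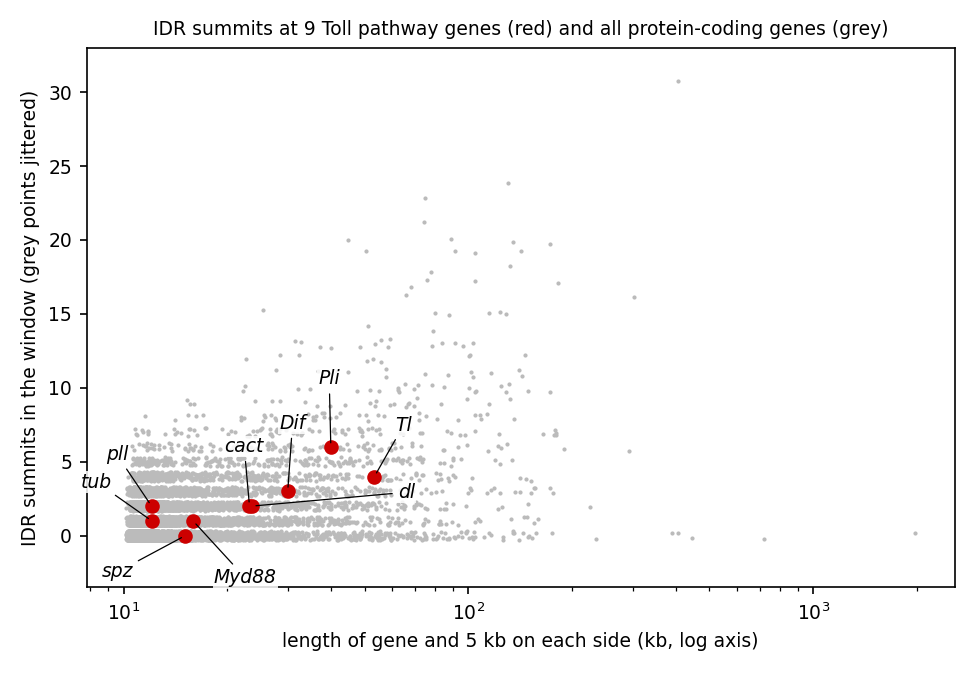
IDR summits (y axis, counts) against the length of the gene with 5 kb on each side (x axis, kb, log axis) for the 9 Toll pathway genes in red and all 13945 protein-coding genes in grey, with the grey points jittered vertically. Pli stands highest of the red points at 6 summits, and spz is at 0.

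The 8 genes held 21 IDR summits in 19 distinct intervals. Pli held 6, Tl 4, Dif 3, cact, dl and pll 2 each, and tub and Myd88 1 each. At least 6 IDR summits stood at 2.55% of all protein-coding genes and at 10.8% of those in the longest quintile, which includes Pli. The windows carried 0.933 IDR summits per 10 kb, or 0.810 without Pli, against 0.580 per 10 kb over the 6 arms. The arms include sequence outside gene windows, so the 0.580 is not a value for other genes. Protein-coding genes held a mean of 0.940 IDR summits in the quintile of tub and pll, 1.12 in that of spz and Myd88 and 2.39 in the longest. Of the 21 summits, 14 lay inside the gene. In introns of any gene lay 13, which include those in the neighbours Lerp and CG5984. Within 250 bp of some TSS were 5 (23.8%, against 26% of all IDR summits), and 10 were over 1 kb from every TSS (47.6%, against 52.2%). For 9 of the 21 the nearest TSS was that of another gene: both at pll, all 3 at Dif and 1 each at Pli, Tl, cact and dl. No share over all IDR summits was computed for the counts inside the gene, in introns or nearest to another gene. Those counts therefore describe the set alone. In strength the 21 summits spanned the list, with a median rank of 3583 of 7769. Among the 500 strongest of the 7769 were 2 of the 21, both in Pli. The stronger of these is the summit for which Pli was chosen.

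At most of these summits the replicates placed the peak at nearly the same position. At 19 of the 21 every replicate had a summit within 100 bp (90.5%, against 88.6% of all IDR summits). The exceptions were 1 summit in Pli and 1 in Dif. The windows also held 71 pooled summits outside the IDR list, and 17 of these (23.9%, against 26.7% of all such pooled summits) had a summit of every replicate within 100 bp.

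**Figure D2:**
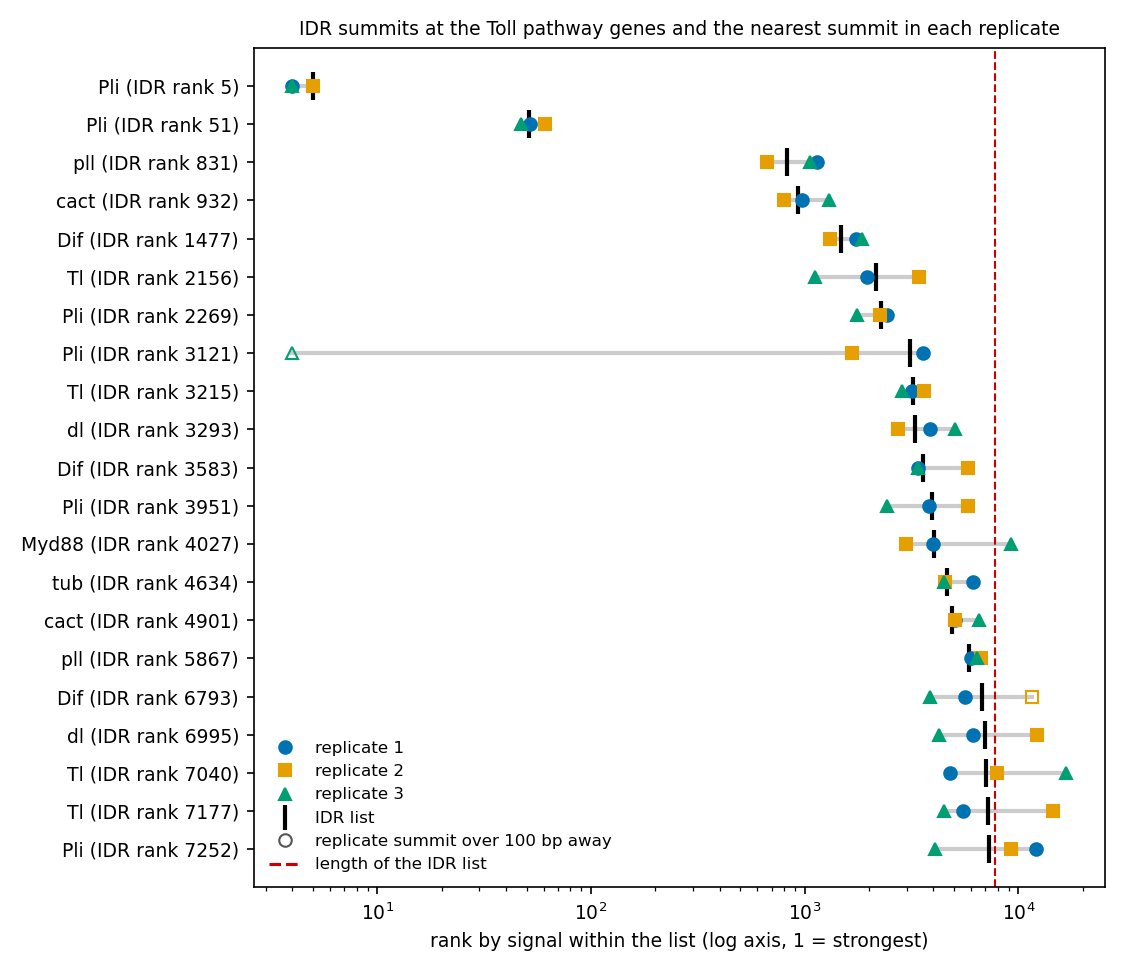
Rank by signal (x axis, log axis, 1 the strongest) of the 21 IDR summits at Toll pathway genes, 1 row each from strongest to weakest, with the rank in the IDR list as a black bar and the rank of the nearest summit in replicates 1, 2 and 3 as coloured symbols, open where it lay over 100 bp away. The dashed line marks the 7769 peaks of the IDR list. Both Pli summits at the top have replicate ranks close together, at 4 to 5 and 47 to 61, and the weakest summits spread widely, up to 16725.

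Pli carried the 2 strongest summits of the set, both in a single intron. The gene spans 29.9 kb on the minus strand of 3R (23860162 to 23890052, FBgn0025574) and has 1 annotated TSS, which its 2 annotated transcripts share. In both transcripts the second of 9 introns is 23401 bp long (3R, 23865656 to 23889056), and no other annotated gene overlaps Pli. The leading summit (3R, 23887203) lay in this intron, 2849 bp downstream of the TSS, 1854 bp from the exon before it and 21548 bp from the exon after it.

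The sequence within 50 bp of this summit held 79.2% A or T, against a mean of 67.5% over all IDR summits (SD 9.44%), and 9.47% of IDR summits were at least as rich. Centred on the replicates' own summits the share was 78.9% ± 0.572 (SD, n = 3).

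**Figure D3:**
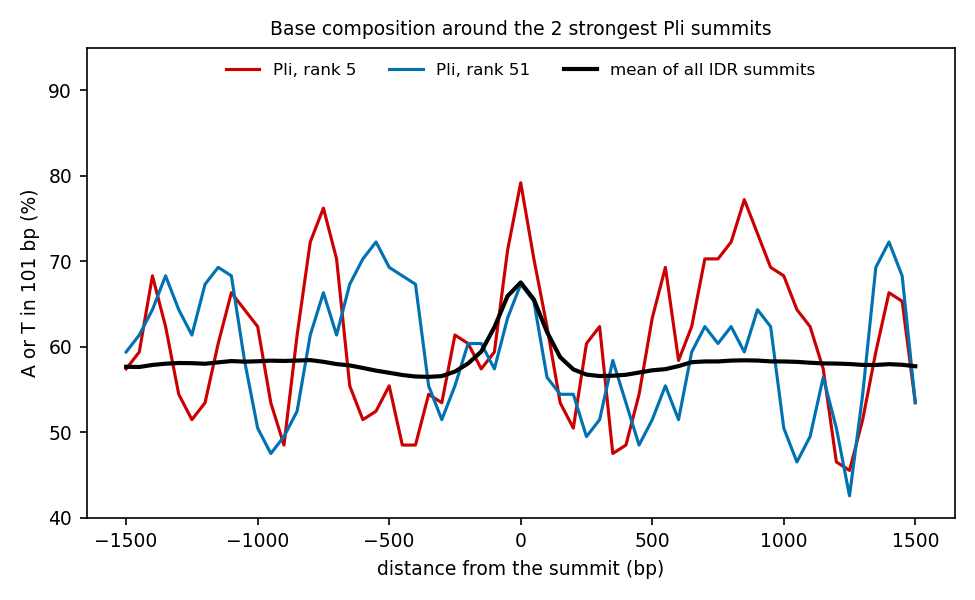
Share of A or T within 50 bp (y axis, %) against the distance from the summit (x axis, bp, along the plus strand) for the Pli summits of rank 5 (red) and rank 51 (blue) and the mean of all 7769 IDR summits (black). At distance 0 the red line is at 79.2% and the blue line at 67.3%, close to the mean of 67.5%.

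The authors' signal value at the leading Pli summit was 10203.5 in replicate 1, 12634.4 in replicate 2, 10173.4 in replicate 3 and 32878 in the pooled list. In terms of each list's own median these were 238, 195, 231 and 244 times, a mean of 221 ± 23.0 over the replicates (SD, n = 3). The peak had 75.9%, 69.5% and 71.2% of the signal of the strongest peak in replicates 1, 2 and 3. It ranked 4, 5 and 4 (4.33 ± 0.577, SD, n = 3). The replicate summits lay 0, 3 and 11 bp from the pooled summit, and the replicate intervals were 2328, 2326 and 2351 bp wide. At 2366 bp the pooled interval was the widest but 1 of the 7581 distinct IDR intervals, whose median width was 444 bp.

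That interval held 3 IDR summits. A flanking summit 1029 bp nearer the TSS (3R, 23888232, rank 2269) ranked 2419, 2245 and 1750 in the replicates, each within 31 bp of the pooled position. The flanking summit on the other side (3R, 23886394, 809 bp from the leading summit, rank 3121) ranked 3589 in replicate 1 and 1668 in replicate 2, and replicate 3 had no summit nearer than 820 bp, which was the leading summit itself. The pooled signal values of the flanking summits were 747 and 573, against 32878 at the leading summit.

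The other strong Pli summit (3R, 23872994, rank 51) lay 14209 bp from the leading summit and 17058 bp downstream of the TSS, in the same intron, 7339 bp from the next exon. It was 13364 bp from the nearest TSS of any gene, that of snRNA:U1:95Ca, a U1 spliceosomal RNA gene beyond the 3′ end of Pli. Its signal value was 2827.2, 3373.9 and 3052.1 in replicates 1, 2 and 3, or 62.4 ± 9.11 times the list median (SD, n = 3), and it ranked 52, 61 and 47 (53.3 ± 7.09, SD, n = 3). The replicate summits lay 12, 2 and 5 bp from the pooled one. The interval was 932 bp wide, the widest but 68. No other protein-coding gene had more than 1 of the 51 strongest IDR summits inside its body, a limit set by the rank of this Pli summit itself. Hr4 had intronic summits of rank 27 and 95. The sequence at this summit is printed because it is the second strongest site of the set. It and the sequences printed for other genes are the plus strand of dm6 from the RefSeq assembly, 5′ to 3′, with runs of at least 12 A or T in capitals, a length chosen after the sequences were seen. This one is chr3R:23872944-23873044 and holds no such run:

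Pli, rank 51: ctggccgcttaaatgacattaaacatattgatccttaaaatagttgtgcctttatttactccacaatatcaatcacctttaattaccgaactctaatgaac

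It held 67.3% A or T, close to the IDR mean, and its longest run of A and T was 8 bases, against a median of 10 bases over all IDR summits. The words AAATATAT, AATAATAT, GAGAG (a word bound by GAGA factor) and GGGNNNNCC (a loose form of the κB site of Dorsal and Dif) were searched on both strands, and none was found within 150 bp of it. A match or its absence describes the letters and shows nothing about binding of a factor.

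The last intronic Pli summit was weak and variable, and the summit at the Pli start site was of middle strength. The weak one (3R, 23876852, rank 7252) lay 13200 bp downstream of the TSS, with replicate ranks of 12109, 9211 and 4085. The start-site summit (3R, 23890014, rank 3951) lay 38 bp downstream of the TSS, in the 5′ UTR, and ranked 3811, 5837 and 2420 (4023 ± 1718, SD, n = 3). It held 48.5% A or T. Of the 25 pooled summits within 20 kb of the leading summit, the 19 others were outside the IDR list. The strongest of those 19 ranked 8416, in the same intron 16389 bp from the leading summit, and the weakest ranked 29570.

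**Figure D4:**
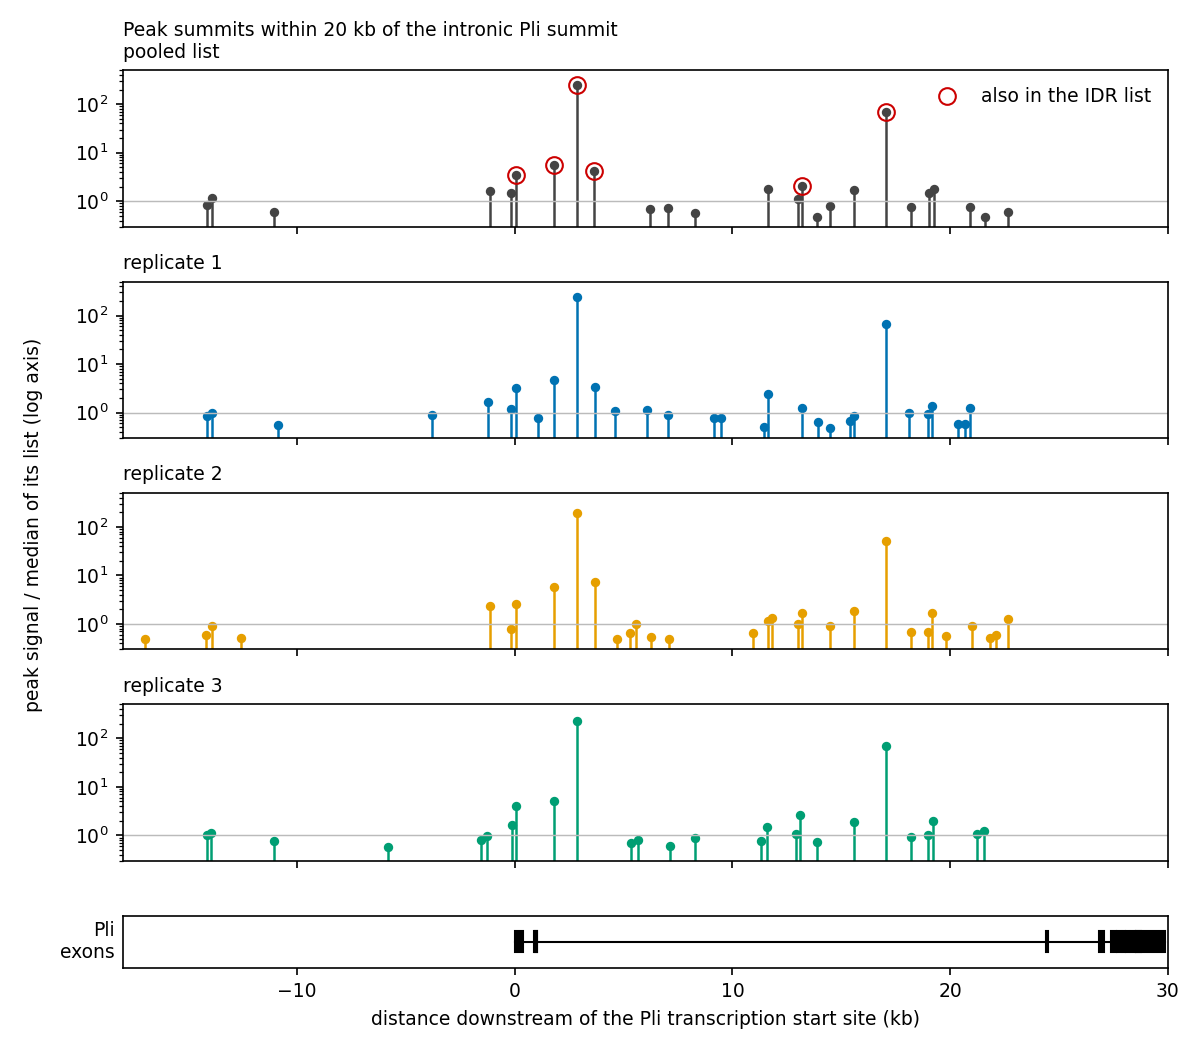
Signal of each peak summit divided by the median of its list (y axis, log axis) against the distance downstream of the Pli TSS (x axis, kb), for the pooled list and replicates 1, 2 and 3, with Pli exons in black in the lowest panel. All summits within 20 kb of the leading intronic summit are drawn, and red circles mark those in the IDR list. In each library the same 2 intronic summits stand above all others, at 195 to 238 and at 52.0 to 69.2 times the median.

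On the side of its start site lie TfIIA-S, which encodes a subunit of a general transcription factor, then tbrd-1, which encodes a bromodomain protein, and the pseudogene CR46402. Their TSSs were 3857, 6180 and 6315 bp from the leading summit, and none of these genes held an IDR summit in its body. A pooled summit of rank 9308 stood 122 bp from the TSS of TfIIA-S, outside the IDR list. On the other side lie snRNA:U1:95Ca, CG34355 and, nested in CG34355, snRNA:U1:95Cb. CG34355 carried an IDR summit of rank 6848, 136 bp from a TSS, and the U1 genes carried none. The nearest IDR summit beyond the 5 kb limit around Pli was 29550 bp from the gene (rank 7439).

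The set was built around Pli because of the rank of its leading summit, so the place of that summit here is no separate result. Among the 2639 IDR summits in introns over 1 kb from every TSS, the rank 51 Pli summit was the sixth strongest. The strongest, at rank 5, was the leading Pli summit. The 5 others nearest to it in mean replicate rank, over the 3 replicates, lay in introns of Raf (rank 15, mean 15.0 ± 0), the nuclear receptor gene Hr4 (rank 27, mean 26.7 ± 0.577), the Hox gene Abd-B (rank 36, mean 39.0 ± 4.36), RhoGEF3 (rank 41, mean 42.0 ± 5.57) and Pli itself (rank 51). Their intervals were 719 to 1174 bp wide, against 2366 bp at the leading Pli summit.

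The ligand gene spz (3R, 27064990 to 27070070, minus strand, FBgn0003495) was the gene of the set with no IDR summit. A single pooled summit lay near it, 543 bp upstream of its TSS, with rank 15660. Replicate 2 had a summit 13 bp from it, with rank 24122, replicate 1 had its nearest 434 bp away, with rank 8212, and replicate 3 listed none in the window. The next summit in either list was 42.3 kb from the gene. Whether spz is free of binding cannot be told from lists cut at 30000 peaks.

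The receptor gene Tl (3R, 26799041 to 26842403, plus strand, FBgn0262473) held a summit at its start site and weaker ones in introns. The start-site summit (3R, 26798847, rank 2156) lay 194 bp upstream of the TSS, with replicate ranks of 1967, 3417 and 1118 (2167 ± 1162, SD, n = 3). The intronic summits lay 2583 bp (rank 7040) and 23503 bp (rank 7177) downstream of the TSS. They ranked 4795, 7943 and 16725, and 5497, 14603 and 4478, so each fell outside the strongest 7769 in at least 1 replicate. The remaining summit (rank 3215; 3178, 3628 and 2862 in the replicates) lay beyond the 3′ end, in an intron of Lerp, which encodes a lysosomal enzyme receptor, 1120 bp from a TSS of lncRNA:CR46073. The start-site sequence is printed because it holds the longest A and T run of the sequences shown, 35 bases, a length reached at 0.579% of IDR summits. It is the plus strand of chr3R:26798797-26798897:

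Tl, rank 2156: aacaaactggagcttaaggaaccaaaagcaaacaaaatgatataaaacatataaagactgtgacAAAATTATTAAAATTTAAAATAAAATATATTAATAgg

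The adaptor gene tub (3R, 4387742 to 4389813, plus strand, FBgn0003882) had a single IDR summit (rank 4634), 156 bp upstream of its only TSS, which ranked 6140, 4526 and 4485 (5050 ± 944, SD, n = 3). Just beyond the 5 kb limit, 5522 bp from tub, stood a far stronger IDR summit of rank 82, 214 bp from the TSS of asRNA:CR45999. The sequence at the tub summit, chr3R:4387536-4387636 on the plus strand, holds no run of 12 A or T and is shown as an example of a weaker start-site peak:

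tub, rank 4634: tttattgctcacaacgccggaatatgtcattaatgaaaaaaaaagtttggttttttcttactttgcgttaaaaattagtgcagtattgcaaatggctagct

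The kinase gene pll (3R, 27251131 to 27253182, minus strand, FBgn0010441) had no IDR or pooled summit in its body or within 5 kb upstream. Its IDR summits both lay downstream, in CG5984. The stronger (3R, 27246437, rank 831) was in the 3′ UTR of CG5984, 4694 bp from pll and 1104 bp from a TSS of lncRNA:CR46085, and ranked 1148, 664 and 1054 (955 ± 257, SD, n = 3). The weaker (rank 5867) was in an intron of CG5984, 370 bp from the TSS of that gene, and ranked 5974, 6723 and 6384. The nearest IDR summit outside the limit, of rank 3202, lay 6338 bp from pll and 25 bp from the TSS of CG18766.

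The inhibitor gene cact (2L, 16313036 to 16326207, minus strand, FBgn0000250), which has 4 TSSs, held the strongest start-site summit of the set. The summit (2L, 16325779, rank 932) lay 154 bp upstream of an internal cact TSS and in an intron of transcripts that start farther upstream. It ranked 975, 797 and 1298 (1023 ± 254, SD, n = 3). The other summit at cact (rank 4901) was 114 bp from the TSS of mRpL4, which encodes a mitochondrial ribosomal protein, and 3039 bp from the nearest cact TSS. The cact window also held 18 pooled summits, of which 16 were outside the IDR list. These 18 were 7.77 per 10 kb, against 2.24 over the 6 arms, which include sequence outside gene windows. Of the 9 genes, Pli came next with 29 pooled summits, 7.27 per 10 kb. The cact summit sequence is the plus strand of chr2L:16325729-16325829:

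cact, rank 932: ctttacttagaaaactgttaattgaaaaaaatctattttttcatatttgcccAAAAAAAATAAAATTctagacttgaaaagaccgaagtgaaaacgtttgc

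The NF-κB genes dl (2L, 17436830 to 17450364, FBgn0260632) and Dif (2L, 17413248 to 17433161, FBgn0011274) are neighbours on the minus strand, and no IDR summit fell in the windows of both. In dl the summits clustered at the 5′ end. The stronger (rank 3293; 3880, 2738 and 5076 in the replicates) lay 595 bp upstream of the TSS, in an exon of lncRNA:CR46204 and 465 bp from the start of that RNA. The weaker (rank 6995; 6120, 12275 and 4272) lay 432 bp downstream of the TSS, in the 5′ UTR. No pooled summit was listed in the remaining body of dl, apart from 1 of rank 19537 beside the weaker IDR summit.

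In Dif a row of 3 IDR summits lay 207 and 213 bp apart in an intron. The strongest (2L, 17430239, rank 1477) ranked 1741, 1308 and 1856 (1635 ± 289, SD, n = 3). The next ones (ranks 3583 and 6793) ranked 3385, 5839 and 3409, and 5618, 11582 and 3855, and the summit of replicate 2 nearest to the last lay 130 bp from it. The smallest gap between neighbouring summits was 199 bp in the IDR list, and 13.4% of IDR summits had another within 250 bp. The group lay 2040 to 2460 bp upstream of the internal Dif TSS, downstream of the distal one, and 533 to 953 bp from a TSS of lncRNA:CR44409. Near the internal TSS lay only pooled summits outside the IDR list, of rank 8779 at 140 bp downstream and rank 25130 at 70 bp upstream. The sequence at the strongest, chr2L:17430189-17430289 on the plus strand, has an A and T run of 25 bases:

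Dif, rank 1477: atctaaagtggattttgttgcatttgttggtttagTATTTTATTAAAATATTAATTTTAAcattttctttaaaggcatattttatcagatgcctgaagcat

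Among the 21 summits of the set, 12 had an A and T run of at least 12 bases within 50 bp, against 39.6% of all IDR summits. Their mean A or T share was 67.8% ± 9.67 (SD over 21 summits), against 67.5% ± 9.44 over all 7769. Within 50 bp of the summit AAATATAT occurred at 4 of the 21 (7.62% of all IDR summits) and AATAATAT at 2 (5.08% of all). GAGAG occurred at 1 of the 21 (9.16% of all), and GGGNNNNCC at none of the 21 (3.17% of all). Within 150 bp GGGNNNNCC occurred at 2 of the 21, those of tub and dl (12.5% of all).

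**Figure D5:**
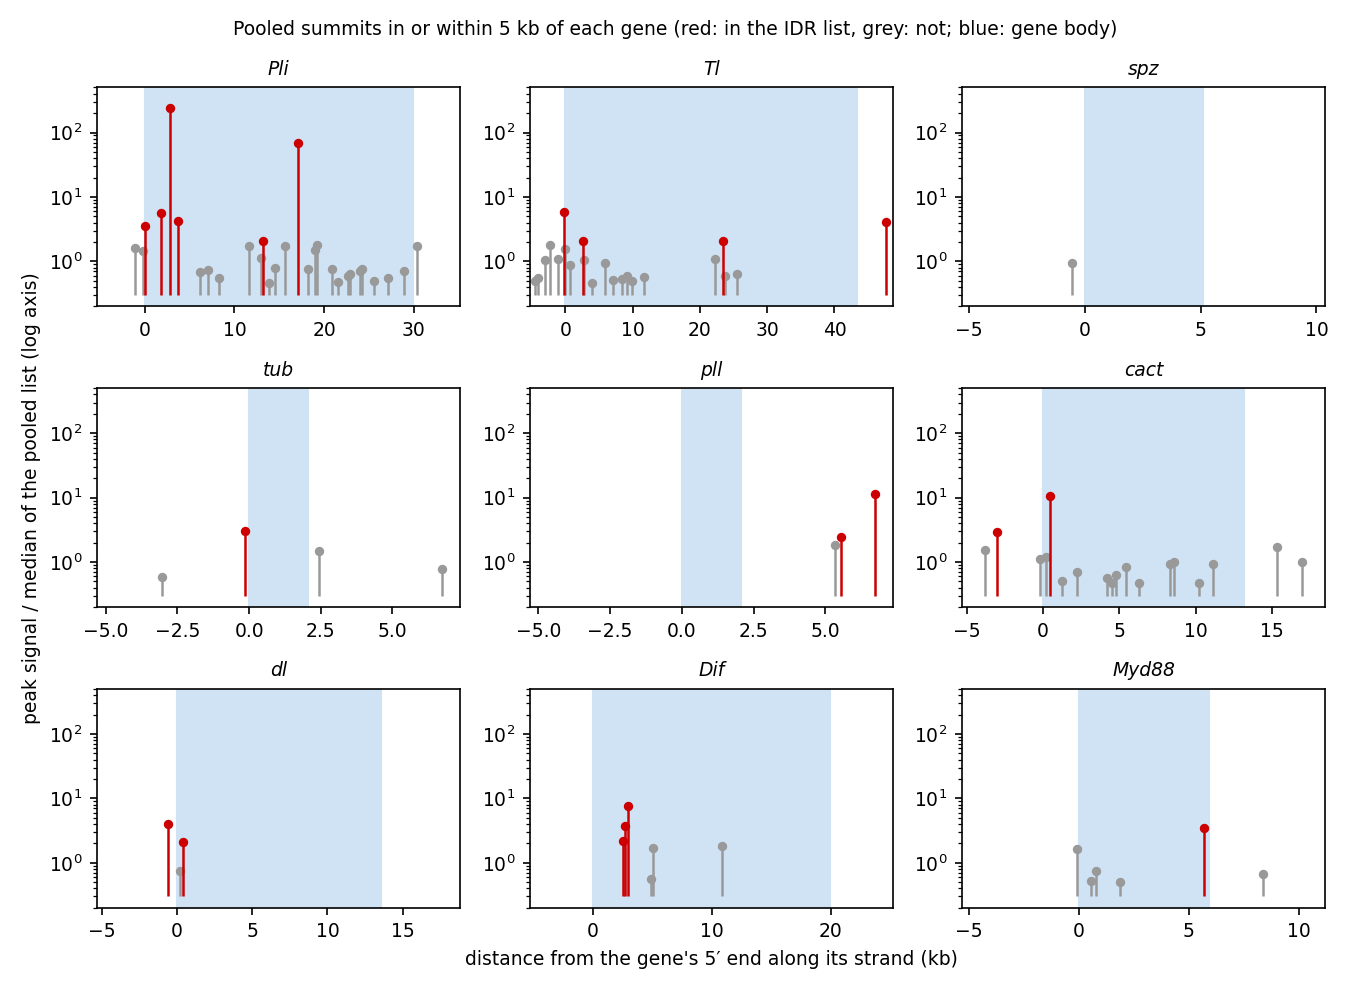
Pooled summits in and within 5 kb of each of the 9 genes, with signal divided by the median of the pooled list (y axis, log axis) against the distance from the 5′ end of the gene along its strand (x axis, kb). Red stems are summits also in the IDR list, grey stems are not, and the blue area is the gene body. The 2 tall red stems of Pli are at 244 and 68.6 times the median, and spz has a single grey stem.

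The adaptor gene Myd88 (2R, 9302823 to 9308722, minus strand, FBgn0033402) had its only IDR summit (2R, 9303033, rank 4027) in its 3′ UTR, 5355 bp from the nearest TSS. It ranked 4003 and 2990 in replicates 1 and 2 and 9209 in replicate 3, where it fell outside the strongest 7769 (5401 ± 3337, SD, n = 3). A pooled summit of rank 9250, outside the IDR list, lay 60 bp upstream of its nearest TSS.

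Other genes around the pathway were counted in the same way and are set beside the 52% of all protein-coding genes with an IDR summit, whose windows had a median of 12.2 kb. Of 5 intracellular modulators, with a median window of 12.8 kb, 4 (80%) had an IDR summit in the gene or within 5 kb. These were cactin, which encodes a Cactus-binding protein (best rank 62), the kinase gene Gprk2 (rank 102), wek, which encodes a ZAD zinc finger adaptor of Toll (rank 2045), and Deaf1 (rank 4491). The strongest summit of each of these 4 genes had the TSS of another gene nearest, those of mal, PNPase, Gli and Cyp305a1. Deaf1 was the 1 of the 5 with an IDR summit within 250 bp of its own TSS, against 15.3% of all protein-coding genes. Of 11 ligands and receptors related to spz and Tl, 6 had one (54.5%, near the 52% of all protein-coding genes, with a longer median window of 16.4 kb), the strongest at spz5 (rank 81, nearest to a TSS of Tet), Toll-6 (rank 1352, 11566 bp from its TSS), Toll-7 (rank 1389, 257 bp from its TSS) and Tollo (rank 2588, 10237 bp). Of 18 upstream recognition and protease genes, 8 had one (44.4%, against 52% of all protein-coding genes). The strongest were at wbl (rank 345, nearest to a TSS of CG33453), PGRP-SA (rank 1125), GNBP3 (rank 1927, nearest to a TSS of CG43783 and orb2) and pip (rank 2238). The last lay in a pip intron, 20800 bp from the nearest TSS. An IDR summit within 250 bp of the gene's own TSS stood at 2 of the 11 ligand and receptor genes. It did so at 4 of the 18 upstream genes, against 15.3% of all protein-coding genes.

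Among the genes downstream of Dorsal and Dif, 7 of 11 dorsoventral targets had an IDR summit (63.6%, against 52% of all protein-coding genes and 55.9% in the quintile of window length that holds their median of 15.1 kb). None had one within 250 bp of a TSS of the gene, against 15.3% of all protein-coding genes. The strongest were at brk (rank 547, 706 bp from its TSS), which encodes a repressor of Dpp targets, and sog (rank 625, in an intron 3468 bp from the TSS), which encodes an antagonist of BMP ligands. Next were the BMP ligand gene dpp (rank 754, nearest to a TSS of tRNA:Tyr-GTA-1-2) and the FGF ligand gene ths (rank 1299). The antimicrobial list was Drs, Mtk, BomS1, BomS2 and BomS3, and 0 of these 5 had one, against 35.8% of the protein-coding genes in the shortest quintile, which holds their median window of 10.4 kb. Outside that list, and looked up after the values were seen, the Bomanin peptide genes BomBc1 and BomT1 had 1 IDR summit each and the other Bomanin genes had 0. The difference between these lists was not tested. Of 13 genes of the Imd pathway, the other NF-κB pathway of fly immunity, 9 had an IDR summit (69.2%, against 52% of all protein-coding genes). In the quintile that holds their median window of 13.1 kb the share was 55.9%. Within 250 bp of their own TSS, 3 of the 13 had one (against 15.3%). The strongest were near IKKbeta (rank 118, inside msps), imd (rank 579, 151 bp from a TSS of Dp1), PGRP-LB (rank 1122, 429 bp from its TSS) and the NF-κB gene Rel (rank 2101, 215 bp from its TSS).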

How the data were processed

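The authors deposited peak lists of D19A ChIP-seq: 1 per replicate, 1 on the pooled libraries and an optimal IDR list. Coordinates are dm6, per the labels and the records deposited with the samples, and the replicate lists share 1 control file per those records. The software for alignment and peak calling, with the cutoff of the IDR step, is not given in the sources used here. Every list holds the authors' signal value, with no stated normalization, the authors' −log10 q-value, with a ceiling of 4.20 in the IDR list at which all its peaks stand, and a summit offset. Signal was used only within a list. No read counts were given, so the depth is unknown and sets no interval here. Gene models were Ensembl release 115 without transposable elements (18164 genes), and sequence was the RefSeq assembly, whose arms are longer than the largest peak end on each arm. Summits were placed with Python 3.11.15, numpy 2.4.6 and pandas 2.3.3. The nearest-TSS step was checked on planted positions. Members, other gene lists and words were chosen with earlier results of these data known, and no test was made. The text names all members, up to 4 genes of each other list by strongest summit, and the neighbours of the leading Pli summit. Alternatives changed the window, the list, the summit match, the sequence window and the replicates used. The sequence at the leading Pli summit is not reported here.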

Additional observations from a re-analysis of the deposited data

How the results depend on the processing

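The number of the 9 genes with an IDR summit was 7 within 2 kb (38.2% of all protein-coding genes), 6 inside the gene body (15.4%), 8 within 10 kb (67.2%), 6 with the upper part of the IDR list (3884 peaks, 37.1%), 9 with the pooled list (67.6%) and 8 where every replicate had a summit within 100 bp (47.2%). The 9 genes had a longer median window (23.2 kb, against 12.2 kb), and no share among genes of like length was computed for these settings. Leaving out replicate 1, 2 or 3 kept 5725, 5866 or 6310 of the IDR peaks. At the 9 genes the summits kept were those among the strongest 7769 of each remaining replicate. The number of genes was then 7, 7 and 8 (43.6%, 43.6% and 46.5% of all protein-coding genes). Myd88 was the gene lost without replicate 1 or 2, because its summit ranked 9209 in replicate 3, which these settings keep. The summits at the genes fell to 11 with the upper part of the IDR list, since that part holds fewer peaks, and were 14 to 26 under the other windows and the summit match, and 15 to 18 when a replicate was left out. Pli had 4 to 6 summits under these alternatives, and 5 when any 1 replicate was left out. In the pooled list, which is longer, the genes held 92 summits and Pli 29. The mean rank of the leading Pli summit was 4 to 4.5 without each replicate. The A or T share at that summit moved to 80.4% within 25 bp and 70.6% within 100 bp, and was 78.7% to 79.2% without each replicate. No paired analysis was possible because the series has 1 group. Unknown depth and lists cut at 30000 peaks limit what an absent peak can show.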
